A study of Homo sapiens with 12 samples.

Results

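The genes of cholesterol and fatty acid synthesis were examined in the lung adenocarcinoma line NCI-H1975, of human origin, whose EGFR carries the mutations L858R and T790M. The list held 34 genes in 3 branches: 18 enzymes of sterol synthesis, 6 genes of sterol regulation and transport, and 10 genes of fatty acid synthesis, desaturation and their acetyl-CoA supply. The genes were taken by symbol from a list chosen with earlier results of these data known, and the row with the highest mean stood for a gene. A named row was found for 30 of the 34 among 22395 named genes, and 24 of these had a mean log2 level of at least 5 and were tested, as 24 of 5820 tested genes. The 24 were 11 sterol synthesis enzymes, 6 regulation and transport genes and 7 fatty acid genes.

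The 10 genes outside the tests were these. MVK, IDI1, FDPS, TM7SF2 and HSD17B7 of sterol synthesis and ACSS2 of the fatty acid branch were measured at means of 4.74, 4.39, 4.93, 2.23, 3.42 and 4.86, below the limit of 5. CYP51A1 and FADS1 were represented only by rows that carried several symbols, so they were given no value. FDFT1 and ACSL3 were not analysed here. ELOVL6, SREBF1 and FADS2, at means of 5.01, 5.09 and 5.09, lay just inside the limit, and FDPS and ACSS2 just outside it. A gene with a low level could pass the limit through the arrays in which it was high.

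Cells make cholesterol from acetyl-CoA along the mevalonate pathway. The transcription factor SREBP-2, the product of SREBF2, drives the genes of that pathway, and SREBP-1, from SREBF1, drives those of fatty acid synthesis. Both are held in the endoplasmic reticulum by INSIG proteins while sterols are plentiful. When sterols in that membrane fall, the escort protein SCAP carries them to the Golgi, where proteases release the active factors. INSIG1 is itself a target of the pathway it restrains.

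The 12 arrays comprised 1 untreated array whose label gave no time, 4 arrays of cells in erlotinib at 1 µM (6, 12, 24 and 48 h), 3 arrays of cells in quinacrine at 3 µM (6, 12 and 24 h) and 4 arrays of cells in both compounds at the same doses (6, 12, 24 and 48 h), called the combination. Erlotinib inhibits the EGFR kinase, and T790M is a mutation known for resistance to it. Quinacrine is an acridine antimalarial that gathers in acidic compartments such as lysosomes. All arrays came from the same line, and no array had quinacrine alone at 48 h. No condition was repeated on a second array, so n counts time points and each SD is the spread over times. The labels do not say whether arrays came from separate cultures, so every p-value measures only the spread between these arrays. Levels are log2 values, on which a difference of 1 is a doubling.

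The combination 6 h array stood apart from the other arrays. Its median correlation with the rest was 0.955, against 0.968 to 0.981 for the others, and its median over the tested genes was 6.18, against 6.38 to 6.56. The combination 48 h array, on which several results below rest, had a median correlation of 0.976, a median over the tested genes of 6.55 and an interquartile range of 2.82, all within the range of the other arrays. The epithelial genes EPCAM (8.35 to 8.67), CDH1 (10.08 to 10.53), KRT7 (6.90 to 7.70) and KRT19 (7.95 to 8.64) were high on every array. KRT8, KRT18 and CLDN4, other epithelial markers, lay at 1.98 to 3.48, 4.47 to 5.01 and 3.31 to 4.10. Markers of leukocytes, endothelium, fibroblasts, adipocytes and hepatocytes lay between 0.5, the lowest value of ALB, and 3.72, the highest of CDH5.

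Promoters of the listed genes were read from RefSeq (build GRCh38.p14), which had entries for 30 of the 34 genes, 40 entries in all. The 250 bases before the start site were searched on both strands for a sterol element core (CACNCCAC), a CCAAT box (CCAAT) and an E-box (CACGTG), none of which overlap in the sequences printed here. A CCAAT box, the site that NF-Y binds beside SREBP, was present in 15 of 20 entries of sterol synthesis genes (75%), 4 of 6 of the regulation and transport genes (66.7%) and 7 of 14 of the fatty acid genes (50%), against 32.0% of all 35116 promoters. The sterol element core was present in 2 of 20 (10%), 2 of 6 (33.3%) and 2 of 14 (14.3%) of the entries of these branches, against 4.87% of all. The E-box was present in 2 of 20 (10%, both entries of SC5D), 2 of 6 (33.3%) and 0 of 14 (0%) of them, against 6.34% of all. Such small counts make these shares imprecise. These shares are descriptions of letters, not of binding. The promoters of the 3 genes whose levels were highest above erlotinib in the tests below are shown, 5′ to 3′ on the gene's strand and ending at the base before the start site, with motif matches in capitals. INSIG1 lies on the plus strand at chr7:155297628-155297877, MSMO1 on the plus strand at chr4:165327419-165327668, and HMGCS1 on the minus strand at chr5:43313413-43313662.
INSIG1: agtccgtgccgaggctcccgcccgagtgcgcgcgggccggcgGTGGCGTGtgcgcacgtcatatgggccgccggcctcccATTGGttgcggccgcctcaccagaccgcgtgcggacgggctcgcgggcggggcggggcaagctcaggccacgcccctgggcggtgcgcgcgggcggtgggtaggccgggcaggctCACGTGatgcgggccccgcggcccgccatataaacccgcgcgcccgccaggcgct
MSMO1: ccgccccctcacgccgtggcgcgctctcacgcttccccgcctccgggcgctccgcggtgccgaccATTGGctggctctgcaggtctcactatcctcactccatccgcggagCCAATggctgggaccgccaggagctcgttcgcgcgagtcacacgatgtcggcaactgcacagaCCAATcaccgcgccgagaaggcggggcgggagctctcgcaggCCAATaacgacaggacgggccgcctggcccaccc
HMGCS1: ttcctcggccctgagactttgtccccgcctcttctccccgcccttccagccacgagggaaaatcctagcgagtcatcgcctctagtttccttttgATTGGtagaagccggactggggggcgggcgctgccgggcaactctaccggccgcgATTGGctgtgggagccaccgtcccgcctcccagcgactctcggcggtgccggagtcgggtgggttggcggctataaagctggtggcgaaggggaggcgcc
In INSIG1 the capitals mark, from left to right, a sterol element core on the reverse strand 208 to 201 bases before the start, a CCAAT box at 170 to 166 and an E-box at 55 to 50. In MSMO1 they mark 4 CCAAT boxes, at 185 to 181, 139 to 135, 76 to 72 and 34 to 30 bases before the start. In HMGCS1 they mark 2 CCAAT boxes, at 155 to 151 and 100 to 96. HMGCS1 had a further entry with a later start, in which none of the motifs was found.

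Several sterol genes, HMGCS1, MSMO1, NSDHL and INSIG1 among them, were above erlotinib in every array with quinacrine up to 24 h. They were below it at 48 h of the combination. FASN was lower in all 7 arrays with quinacrine than in all 5 without it, as were 4.48% of all tested genes (1 of the 24 here). The median of the 11 sterol synthesis genes was 0.54 above erlotinib at 12 h with quinacrine and 0.57 above it with the combination, on the log2 scale. At 48 h of the combination it was 0.53 below erlotinib. FASN was 0.62 lower with the combination over all 4 times and 0.60 lower with quinacrine over 3. Each of these FASN differences no longer passed its test when any of several single arrays was left out.

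**Figure D1:**
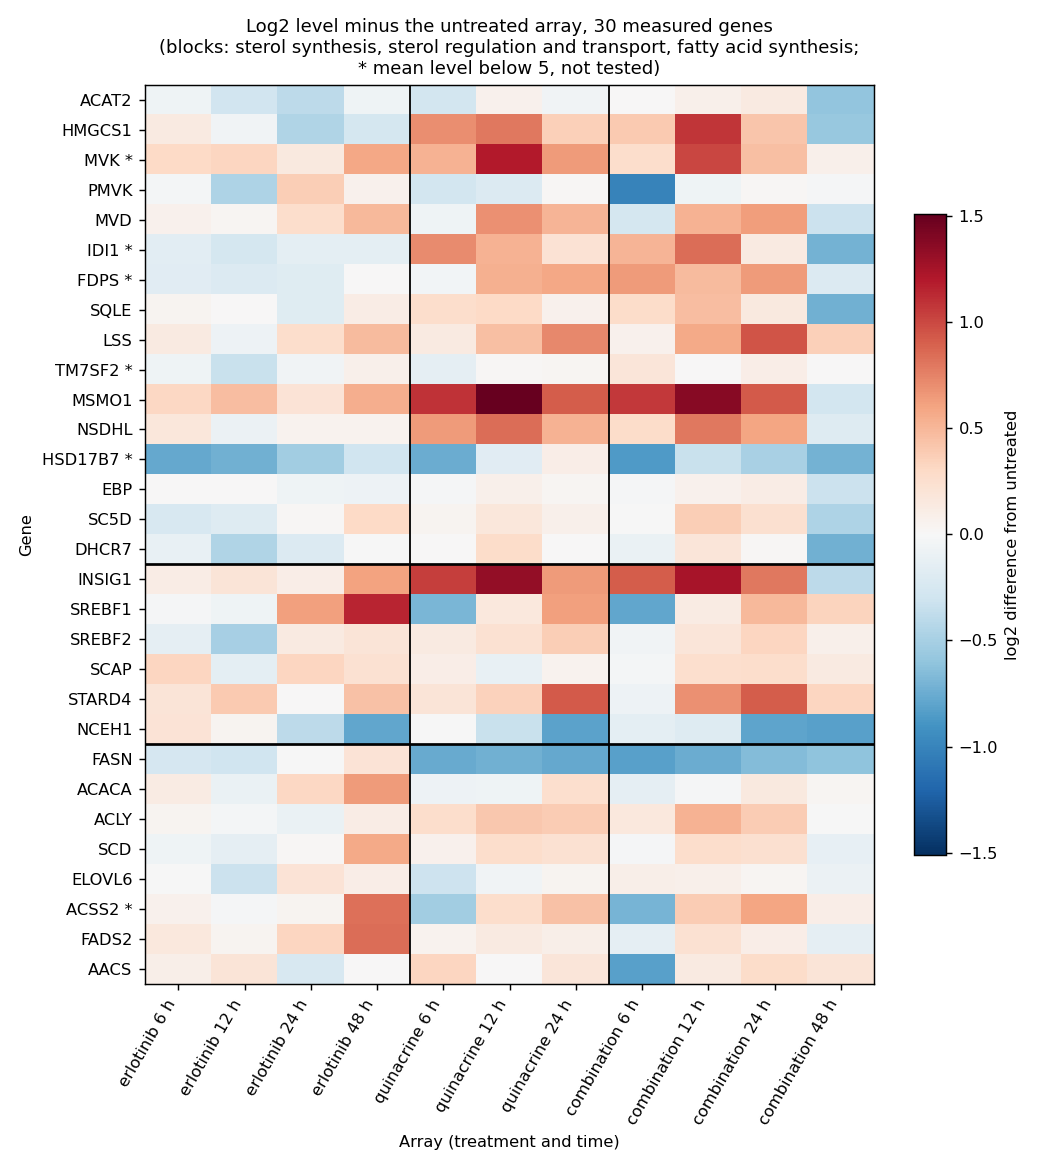
Log2 level minus the untreated array for the 30 measured genes (rows, in blocks of sterol synthesis, sterol regulation and transport, and fatty acid synthesis) on the 11 treated arrays (columns); red is higher and blue lower than the untreated array, and an asterisk marks genes below the level limit. MSMO1 and INSIG1 were highest at 12 h of quinacrine, 1.51 and 1.33 above the untreated array, and FASN was below it in all 7 arrays with quinacrine.

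The first steps of sterol synthesis join acetyl-CoA units and lead through mevalonate. HMGCS1, the cytosolic HMG-CoA synthase that feeds the pathway, had a level of 6.87 untreated, then 7.01, 6.82, 6.41 and 6.60 in erlotinib at 6, 12, 24 and 48 h. It stood at 7.57, 7.67 and 7.23 in quinacrine at 6, 12 and 24 h, and at 7.27, 7.95, 7.29 and 6.30 in the combination at 6, 12, 24 and 48 h. All 6 arrays with quinacrine up to 24 h were therefore above all 5 arrays without it, and the combination 48 h array was the lowest of the 12. Among all tested genes, 3.13% had the former pattern, and among the 24 it was found in HMGCS1, MSMO1, NSDHL, INSIG1 and ACLY. ACAT2, the acetoacetyl-CoA thiolase, lay between 5.00 and 5.53 on 11 arrays and at 4.81 on the combination 48 h array. MVK, the mevalonate kinase, was below the limit of 5 on average but reached 5.48 at 12 h of quinacrine and 5.29 at 12 h of the combination, against 4.28 untreated and 4.43 to 4.86 in erlotinib.

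The kinase PMVK, the next step, did not follow this pattern: it was 4.46 at 6 h of the combination and between 5.00 and 5.84 on the other 11 arrays. MVD, which makes isopentenyl diphosphate, was 6.49 untreated, 6.55, 6.52, 6.75 and 6.98 in erlotinib, 6.43, 7.18 and 7.0 in quinacrine, and 6.22, 7.01, 7.12 and 6.17 in the combination. Its highest values were those with quinacrine at 12 and 24 h, and its lowest those of the combination at 6 and 48 h. IDI1, the isomerase of that product, was low throughout but ordered like HMGCS1: 4.0 to 4.26 without quinacrine, 4.40 to 5.10 with it up to 24 h, and 3.55 at 48 h of the combination. FDPS, the farnesyl diphosphate synthase, lay at 4.55 to 4.77 without quinacrine, at 4.72 to 5.40 with it up to 24 h, and at 4.55 at 48 h of the combination.

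The later enzymes turn squalene into cholesterol. SQLE, the squalene epoxidase, was 7.81 untreated and 7.85, 7.81, 7.63 and 7.92 in erlotinib. It was 8.08, 8.11 and 7.88 in quinacrine and 8.09, 8.28, 7.96 and 7.09 in the combination, the last being its lowest value. LSS, the lanosterol synthase, was 6.58 untreated, 6.71, 6.5, 6.85 and 7.06 in erlotinib, 6.71, 7.04 and 7.30 in quinacrine, and 6.64, 7.15, 7.53 and 6.94 in the combination. Unlike SQLE, LSS stayed above the untreated array at 48 h of the combination.

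MSMO1, the oxidase that starts removal of the methyl groups of lanosterol's descendants, had the widest range of the sterol enzymes. It was 8.13 untreated, 8.44, 8.60, 8.34 and 8.68 in erlotinib, 9.22, 9.64 and 9.05 in quinacrine, and 9.20, 9.51, 9.06 and 7.85 in the combination. All 6 values with quinacrine up to 24 h lay above 9, all 5 values without it below 8.7, and the combination 48 h array lowest of all. NSDHL, the dehydrogenase of the same demethylation, was 8.88 untreated, 9.05, 8.79, 8.93 and 8.93 in erlotinib, 9.52, 9.72 and 9.40 in quinacrine, and 9.16, 9.68, 9.48 and 8.68 in the combination. Its arrays fell into the same order, with the 6 h combination value nearest to the arrays without quinacrine.

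The closing steps followed. DHCR7, the last reductase on the route to cholesterol, was 8.14 untreated, 8.03, 7.69, 7.93 and 8.13 in erlotinib, 8.14, 8.42 and 8.14 in quinacrine, and 8.04, 8.32, 8.16 and 7.42 in the combination. SC5D, a sterol desaturase, lay between 6.06 and 6.67 on 11 arrays and at 5.83 at 48 h of the combination. EBP, a sterol isomerase, lay between 7.06 and 7.25 on 11 arrays and at 6.81 on that one. TM7SF2, a sterol reductase, was low at 1.90 to 2.42, and HSD17B7, a sterol ketoreductase, lay at 3.02 to 3.98 with its highest value at 24 h of quinacrine.

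Among the regulators, INSIG1 had the same course as MSMO1. Its level was 8.43 untreated, 8.54, 8.62, 8.53 and 9.04 in erlotinib, 9.47, 9.76 and 9.07 in quinacrine, and 9.34, 9.67, 9.23 and 8.03 in the combination. The 6 values with quinacrine up to 24 h were above all 5 without it, though the 24 h quinacrine array exceeded the 48 h erlotinib array by little, and the combination 48 h value was the lowest. SREBF2 was 6.56 untreated, 6.42, 6.06, 6.70 and 6.76 in erlotinib, 6.69, 6.79 and 6.93 in quinacrine, and 6.51, 6.74, 6.88 and 6.64 in the combination, with groups that overlapped.

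SREBF1 was lowest on the 6 h arrays with quinacrine. It was 4.93 untreated, 4.91, 4.86, 5.55 and 6.08 in erlotinib, 4.24, 5.09 and 5.55 in quinacrine, and 4.14, 5.05, 5.42 and 5.27 in the combination. Its slope per doubling of time was 0.42 in erlotinib, 0.65 in quinacrine and 0.38 in the combination, with limma adjusted p-values of 0.309, 0.225 and 0.0734, so none passed. SCAP lay between 6.76 and 7.24 in all arrays. STARD4, a carrier of sterols through the cytosol, was at its highest at 24 h of quinacrine and of the combination, 5.83 and 5.82, against 4.90 to 5.34 without quinacrine. Its other arrays with quinacrine lay between 4.82 and 5.59 and so overlapped that range. NCEH1, a hydrolase of cholesterol esters, was lower at later times in every treatment: 8.52, 8.35, 7.92 and 7.53 in erlotinib, 8.30, 7.97 and 7.50 in quinacrine, and 8.16, 8.12, 7.51 and 7.49 in the combination, against 8.31 untreated. Its slopes of -0.34, -0.40 and -0.26 had limma adjusted p-values of 0.167, 0.225 and 0.0558.

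**Figure D2:**
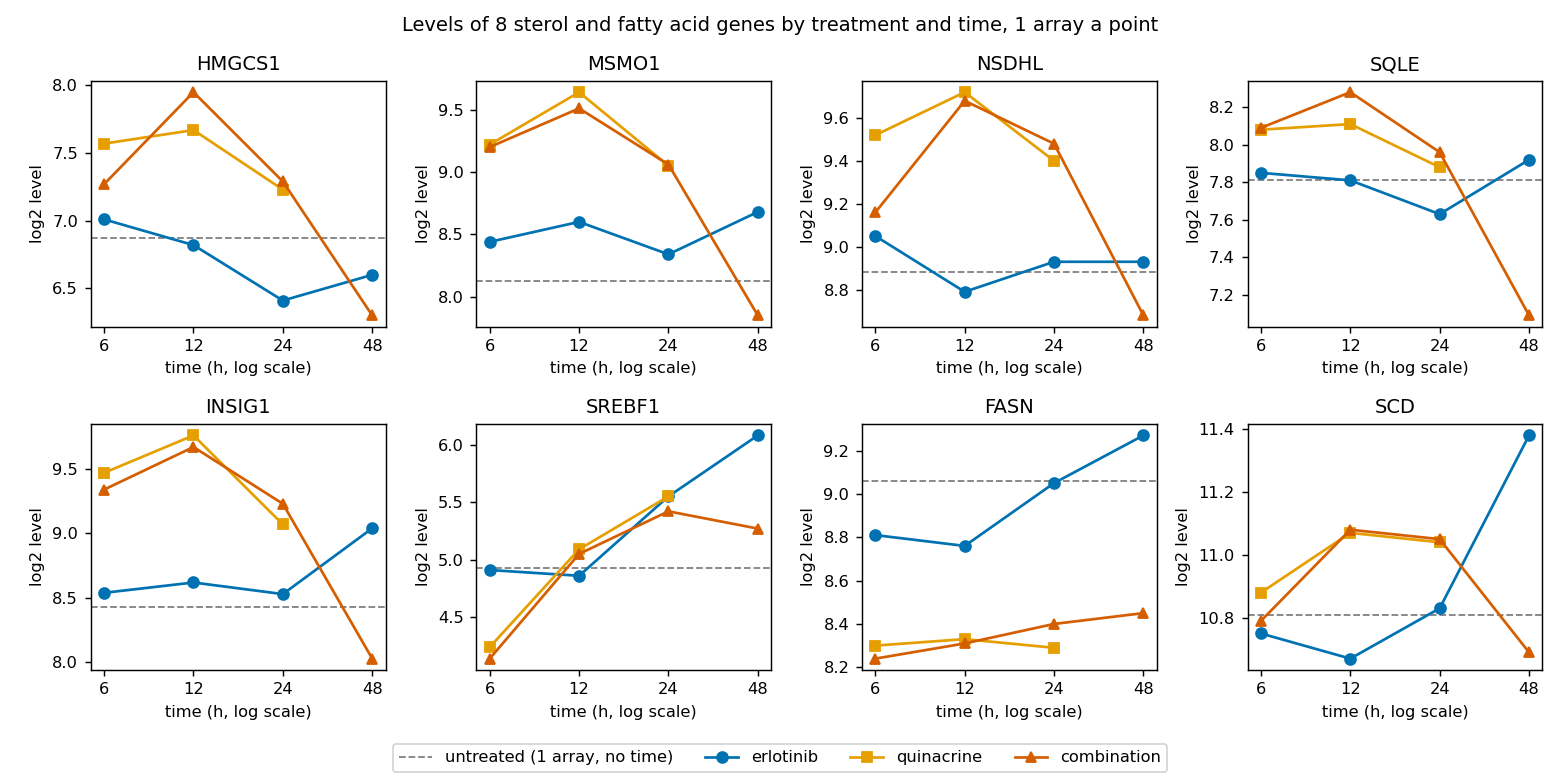
Log2 level against time in h (log scale) for 8 genes, 1 array a point, with the untreated array as a dashed line. HMGCS1, MSMO1, NSDHL, SQLE and INSIG1 were above erlotinib with quinacrine or the combination at 6, 12 and 24 h and below it at 48 h of the combination, FASN was below erlotinib at every time, and SREBF1 was close to erlotinib at 24 h (5.55 in quinacrine and erlotinib alike).

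The fatty acid genes differed among themselves in their course. FASN, the synthase that builds palmitate, was 9.06 untreated, 8.81, 8.76, 9.05 and 9.27 in erlotinib, 8.30, 8.33 and 8.29 in quinacrine, and 8.24, 8.31, 8.40 and 8.45 in the combination. All 7 arrays with quinacrine lay below all 5 without it, a pattern found in 4.48% of the tested genes and in FASN alone among the 24. The mean was 8.97 ± 0.24 (SD, n = 4) in erlotinib, 8.31 ± 0.02 (SD, n = 3) in quinacrine and 8.35 ± 0.09 (SD, n = 4) in the combination.

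ACLY, which makes cytosolic acetyl-CoA from citrate and so supplies both branches, went the other way. It was 9.79 untreated, 9.83, 9.76, 9.69 and 9.90 in erlotinib, 10.05, 10.20 and 10.17 in quinacrine, and 9.95, 10.31, 10.17 and 9.78 in the combination. The 6 arrays with quinacrine up to 24 h were above all 5 without it, and the 48 h combination array was level with the untreated one. ACSS2, which makes acetyl-CoA from acetate, lay below the limit on average and ranged from 4.04 at 6 h of the combination to 5.57 at 48 h of erlotinib.

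The carboxylase ACACA, whose product FASN uses, was 6.90 untreated, 7.02, 6.80, 7.21 and 7.54 in erlotinib, 6.82, 6.83 and 7.15 in quinacrine, and 6.77, 6.88, 7.05 and 6.93 in the combination. SCD, the stearoyl-CoA desaturase, was 10.81 untreated, 10.75, 10.67, 10.83 and 11.38 in erlotinib, 10.88, 11.07 and 11.04 in quinacrine, and 10.79, 11.08, 11.05 and 10.69 in the combination. Both genes were highest at 48 h of erlotinib. SCD, like ACLY, was above erlotinib with quinacrine and with the combination at 6, 12 and 24 h and below it at 48 h: by 0.13, 0.40 and 0.21 with quinacrine and by 0.04, 0.41, 0.22 and -0.69 with the combination. The desaturase gene FADS2 was at 4.81 to 5.27 on 11 arrays and at 5.79 at 48 h of erlotinib. ELOVL6, an elongase, lay between 4.71 and 5.24, and AACS, the acetoacetyl-CoA synthetase, between 5.23 and 5.80 on all arrays but the 6 h combination array, at 4.65.

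The 3 branches were then compared with erlotinib at each matched time, where 1 array is set against 1 and no test is possible. Both sets of differences share the erlotinib arrays, so likeness between them is in part fixed by that. At 6 h the medians for quinacrine minus erlotinib were 0.11 for sterol synthesis, -0.10 for regulation and transport and -0.11 for fatty acid synthesis, against -0.09 for all tested genes. For the combination they were 0.08, -0.31 and -0.25, against -0.27 for all genes. At 6 h, then, the regulation and fatty acid medians lay near that of all genes and the sterol synthesis median above it. MSMO1 was the one sterol synthesis gene of the 11 at least 1.5-fold higher at 6 h, 1.72-fold with quinacrine (as were 2.1% of all tested genes) and 1.69-fold with the combination (0.979% of all). INSIG1 was 1.91-fold and 1.74-fold higher. None of the 11 was that much lower with quinacrine, against 10.1% of all genes, and SREBF1 was 1.59-fold lower there. PMVK was 1.97-fold, SREBF1 1.71-fold and AACS 1.88-fold lower in the combination at 6 h, in which 24.5% of all genes were at least 1.5-fold lower.

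At 12 h the sterol branch stood furthest above erlotinib. All 11 sterol synthesis genes were higher with quinacrine, with a median of 0.54 against 0.06 for all genes, and 5 of the 11 were at least 1.5-fold higher, against 9.16% of all genes. These 5 were HMGCS1 (1.80-fold), MVD (1.58-fold), MSMO1 (2.06-fold), NSDHL (1.91-fold) and DHCR7 (1.66-fold). With the combination the median was 0.57 against 0.14 for all genes, and 5 of the 11 passed 1.5-fold, against 12.2% of all genes: HMGCS1 (2.19-fold), LSS (1.57-fold), MSMO1 (1.88-fold), NSDHL (1.85-fold) and DHCR7 (1.55-fold). Of the 6 regulators, INSIG1 and SREBF2 passed in both, INSIG1 by 2.20-fold and 2.07-fold and SREBF2 by 1.66-fold and 1.60-fold. SREBF2 was at its lowest of all arrays, 6.06, in the erlotinib 12 h array that both differences use. LSS was also at its lowest there (6.5), and DHCR7 at its lowest before 48 h (7.69). That array had the next lowest median correlation after the combination 6 h array (0.968) and a median over the tested genes of 6.38, and the part of this in the 12 h differences was not tested. The fatty acid medians were 0.09 and 0.19, and none of the 7 genes passed 1.5-fold in either direction. None of the 24 genes was at least 1.5-fold lower at 12 h, against 4.38% of all genes with quinacrine and 2.59% with the combination.

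At 24 h the differences were smaller. The sterol synthesis median was 0.25 with quinacrine, with HMGCS1 (1.77-fold) and MSMO1 (1.64-fold) past 1.5-fold among the 11 and 7.04% of all genes. It was 0.37 with the combination, with HMGCS1 (1.84-fold), LSS (1.60-fold) and MSMO1 (1.65-fold) past it and 6.48% of all genes. The erlotinib 24 h array, which both differences use, held the lowest HMGCS1 level of the arrays without quinacrine, 6.41 against 6.87 untreated. STARD4 was 1.91-fold and 1.89-fold higher, and INSIG1 1.45-fold and 1.62-fold. The fatty acid medians were -0.06 and -0.16, and FASN was 1.69-fold and 1.57-fold lower, while 3.73% and 3.83% of all genes were at least 1.5-fold lower.

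Against the untreated array the sterol synthesis medians were smaller. They were 0.04, 0.30 and 0.08 in quinacrine at 6, 12 and 24 h, where the medians of all genes were -0.03, 0.00 and 0.09. In the combination they were 0.01, 0.47, 0.24 and -0.33 at 6, 12, 24 and 48 h, where those of all genes were -0.21, 0.08, 0.07 and 0.04. At 24 h of quinacrine the branch as a whole was thus level with all genes, while MSMO1 was 0.92 above the untreated array. In erlotinib the medians were 0.04, -0.08, 0.02 and 0.06 at these 4 times.

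**Figure D3:**
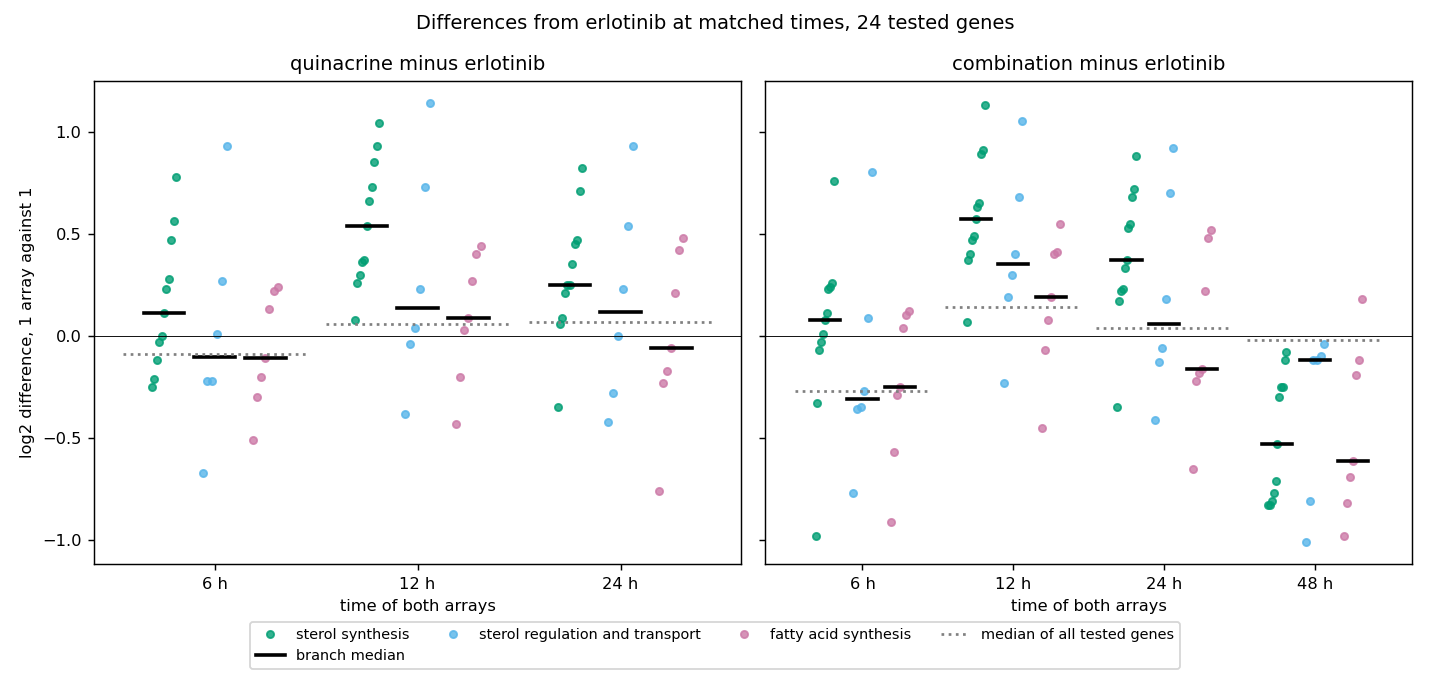
Log2 difference from the erlotinib array of the same time for the 24 tested genes, for quinacrine (left) and the combination (right); points are genes coloured by branch, black bars branch medians and dotted lines the median of all 5820 tested genes. The sterol synthesis median was 0.54 and 0.57 at 12 h and -0.53 at 48 h of the combination, and the fatty acid median was -0.61 at 48 h.

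At 48 h, which only erlotinib and the combination reached, the order was reversed. All 17 tested sterol genes and 6 of the 7 fatty acid genes were lower in the combination than in erlotinib, AACS being the exception, while 51.7% of all tested genes were lower. At least 1.5-fold lower were 5 of the 11 sterol synthesis genes, 2 of the 6 regulation and transport genes and 4 of the 7 fatty acid genes, against 5.88% of all genes. The sterol synthesis genes were MVD (1.75-fold), SQLE and MSMO1 (both 1.78-fold), SC5D (1.71-fold) and DHCR7 (1.64-fold). INSIG1 was 2.01-fold and SREBF1 1.75-fold lower. FADS2 was 1.97-fold, FASN 1.77-fold, SCD 1.61-fold and ACACA 1.53-fold lower. This comparison joins 1 array of each treatment: 16 of the 24 genes were highest of the 4 erlotinib arrays at 48 h, as were 33.5% of all genes, and 15 of the 24 were lowest of the 4 combination arrays at 48 h, as were 18.7% of all genes.

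The change from 24 to 48 h within the combination, again 1 array against 1 with no test, differed in size between the branches. It was at least 1.5-fold downward in 57 of the 5820 tested genes (0.979%), and 11 of these 57 (19.3%) were sterol genes: 9 of the 11 sterol synthesis genes, INSIG1 and STARD4. None of the 7 fatty acid genes was among them. Ranked from the lowest difference of all 5820 genes, MSMO1 was at place 3 (2.31-fold lower), INSIG1 at 4 (2.30-fold), HMGCS1 at 6 (1.99-fold), MVD at 7 (1.93-fold), SQLE at 8 (1.83-fold), NSDHL at 14 (1.74-fold) and DHCR7 at 20 (1.67-fold). ACAT2, SC5D, STARD4 and LSS followed at 24, 25, 53 and 55. The sterol synthesis median was -0.74, that of regulation and transport -0.19, that of fatty acid synthesis -0.12 and that of all genes -0.02.

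The sterol synthesis genes that missed 1.5-fold were EBP (-0.44) and PMVK (-0.04). The fatty acid gene with the lowest difference was ACLY (-0.39, place 225), and FASN was 0.05 higher. IDI1 and FDPS, below the level limit and so not ranked, were both 1.80-fold lower. Over the same interval in erlotinib the medians were 0.21, 0.25 and 0.25, and none of the 24 genes passed 1.5-fold in either direction, against 3.16% of all genes upward and 1.51% downward. Against the untreated array, the combination 48 h array was lower in 10 of the 11 sterol synthesis genes, the exception being LSS, as were 43.9% of all genes. Its largest differences from the untreated array there were those of SQLE and DHCR7 (both 1.65-fold lower). The late values rest on 1 array with no repeat, and quinacrine alone was not measured at that time.

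**Figure D4:**
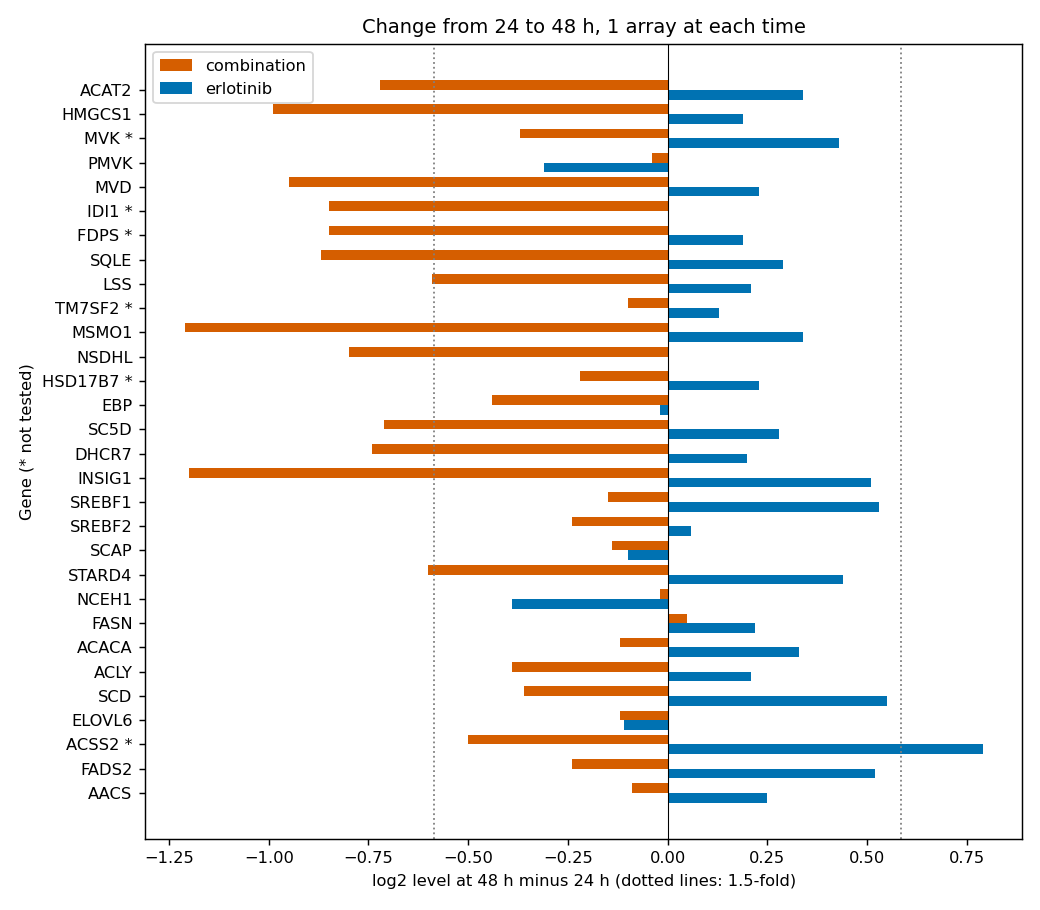
Log2 level at 48 h minus that at 24 h for the 30 measured genes, in the combination (orange) and in erlotinib (blue), 1 array at each time; dotted lines mark 1.5-fold and asterisks genes below the level limit. In the combination 9 of the 11 tested sterol synthesis genes lay past the lower line and none of the fatty acid genes did, while in erlotinib none of the 24 tested genes passed either line.

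Over all times, FASN was the only one of the 24 genes to pass the test of the combination against erlotinib. It fell 1.54-fold (log2 -0.62, SE 0.10, 95% interval -0.85 to -0.39, limma adjusted p = 0.0242), lower at 4 of 4 times. In that comparison 212 of 5820 genes passed (3.64%), 1.43% of all genes upward and 2.22% downward, so 1 of 24 is a share of the same order. Several sterol genes whose 48 h values lay on the other side of erlotinib had wide intervals over these times: 0.49 (0.02 to 0.96) for HMGCS1, 0.39 (-0.19 to 0.97) for MSMO1, 0.33 (-0.07 to 0.72) for NSDHL, 0.38 (-0.29 to 1.06) for INSIG1 and 0.05 (-0.39 to 0.49) for SQLE. The smallest adjusted p among the regulators was 0.197, for NCEH1 (-0.26), and ACLY (0.26, adjusted p = 0.284) came next to FASN in the fatty acid branch. SCD did not differ detectably (0.00, interval -0.38 to 0.37). The call of FASN was lost when certain arrays were left out singly: for erlotinib those at 12, 24 and 48 h (adjusted p of 0.0597, 0.101 and 0.0909), for quinacrine those at 12 and 24 h (0.0576 and 0.057), and for the combination those at 12, 24 and 48 h (0.068, 0.12 and 0.0909). Without the erlotinib or combination 48 h array, MSMO1 was called in its place (0.80, adjusted p = 0.0368).

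Quinacrine against erlotinib gave FASN alone as well, at the edge of the threshold. FASN fell 1.52-fold (log2 -0.60, SE 0.11, interval -0.86 to -0.34, limma adjusted p = 0.0498), lower at 3 of 3 times, in a comparison that called 66 genes (1.13%), 0.515% of all genes upward and 0.619% downward. The sterol estimates were 0.61 (SE 0.23, adjusted p = 0.221) for HMGCS1, 0.64 (SE 0.29, adjusted p = 0.297) for MSMO1, 0.53 (SE 0.19, adjusted p = 0.208) for NSDHL and 0.64 (SE 0.33, adjusted p = 0.366) for INSIG1. These estimates use the combination arrays for the time effects, so the combination 48 h array enters them. Without that array, or without the erlotinib 48 h array, MSMO1 (0.84, adjusted p = 0.0262) and INSIG1 (0.87, adjusted p = 0.0454) were called and FASN was not (adjusted p = 0.0772). Its call was also lost without the erlotinib array at 12 or 24 h, any of the 3 quinacrine arrays, or the combination array at 12 or 24 h, with adjusted p-values of 0.0749 to 0.258.

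Several sterol genes, HMGCS1, MSMO1, NSDHL and INSIG1 among them, had passed from above to below erlotinib between 24 and 48 h of the combination. PMVK, NCEH1, SREBF1 and, by little, SCAP (7.18 against 7.24) were below erlotinib at 24 h already. A further comparison, chosen after these levels were seen, set the 6 arrays with quinacrine against the 3 erlotinib arrays at 6, 12 and 24 h. MSMO1 lay 1.77-fold above erlotinib by limma (log2 0.82, SE 0.10, adjusted p = 0.0142), INSIG1 1.82-fold (0.86, SE 0.12, adjusted p = 0.0185) and HMGCS1 1.68-fold (0.75, SE 0.15, adjusted p = 0.0484). FASN was 1.48-fold lower (-0.56, SE 0.10, adjusted p = 0.0364). Each went the same way in 6 of 6 matched differences, which share 3 erlotinib arrays. In all, 173 genes passed (2.97%), of which 68 were higher (1.17%) and 105 lower (1.8%), against 3 of 24 and 1 of 24 here. NSDHL (0.57, adjusted p = 0.075), ACLY (0.38, adjusted p = 0.0945), NCEH1 (-0.34, adjusted p = 0.101) and SQLE (0.30, adjusted p = 0.11) did not pass. SREBF2 (0.36, adjusted p = 0.156), SCD (0.24, adjusted p = 0.226) and SREBF1 (-0.19, adjusted p = 0.559) did not either. The p-values of this comparison are not independent of the levels described above. Nor is the share of the 24 genes that passed, since the comparison was chosen from those levels. That share set against the share of all genes is therefore no test. The count of genes called was 0 without the erlotinib array at 12 or 24 h, without any of the 3 quinacrine arrays or without the combination array at 24 h, and MSMO1 alone passed without the combination array at 12 h. Without the erlotinib 6 h array 5 passed, with 171 of all 5820 genes higher and 69 lower. Without the combination 6 h array 6 passed, with 241 of all genes higher and 181 lower. With all times included, only FASN passed.

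**Figure D5:**
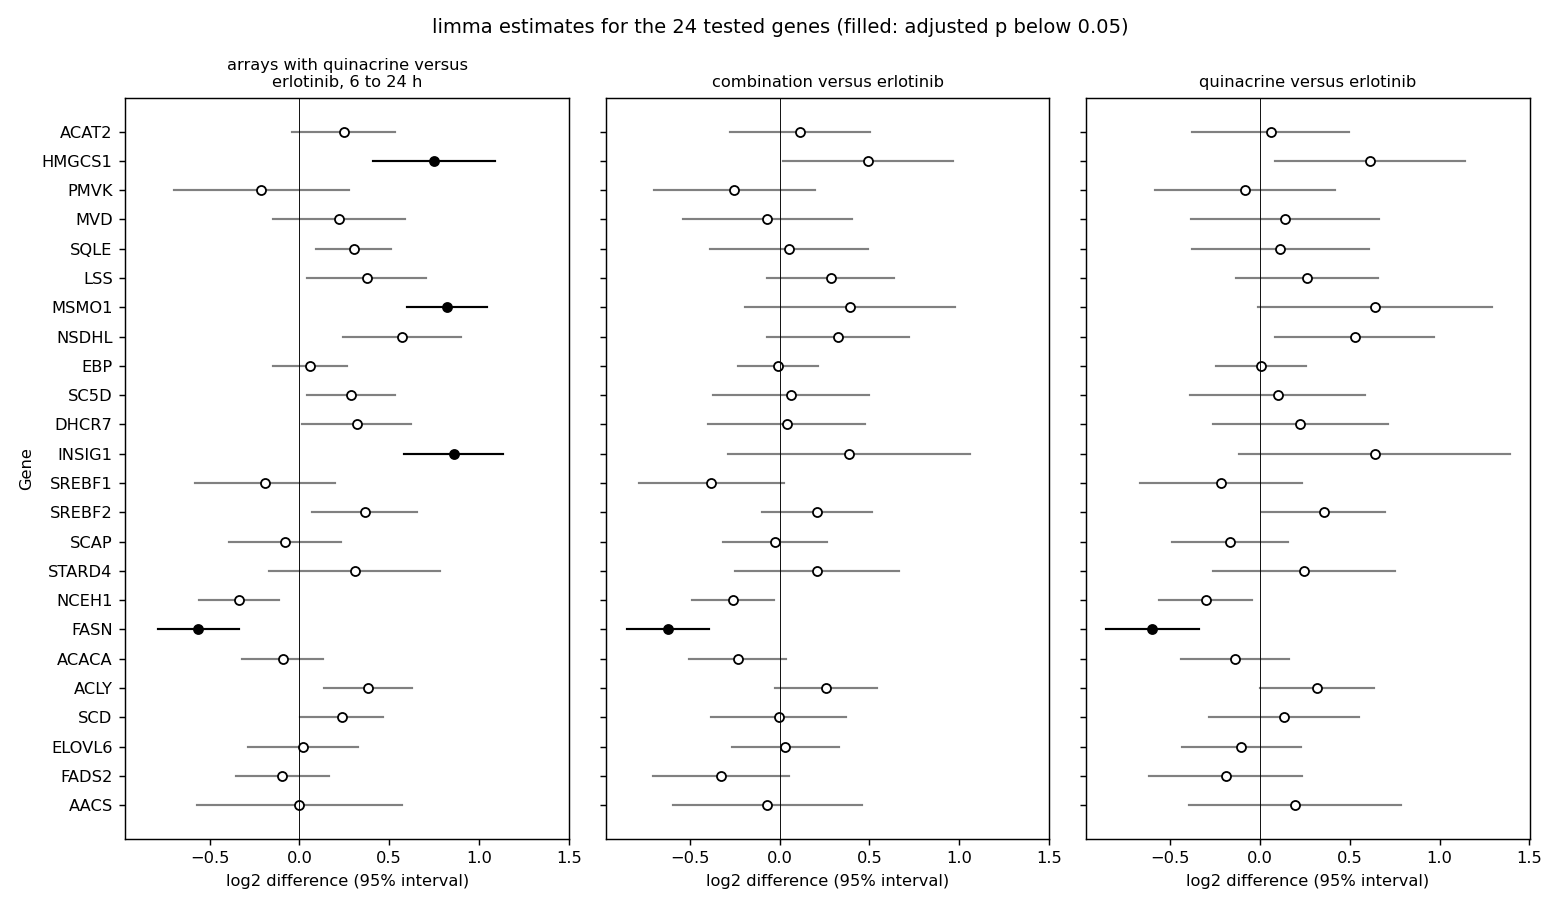
limma estimates of the log2 difference with 95% intervals for the 24 tested genes in 3 comparisons; filled points had an adjusted p below 0.05. The interval of FASN lay below 0 in all 3 panels, and MSMO1, INSIG1 and HMGCS1 were filled only in the comparison limited to 6, 12 and 24 h, which was chosen after the levels were seen.

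The combination was also set against quinacrine alone, which asks what erlotinib added. Quinacrine alone had no 48 h array, but the 48 h arrays of erlotinib and the combination enter this fit through the time effects. The MSMO1 estimate was -0.25. Its levels at 6, 12 and 24 h were 9.20, 9.51 and 9.06 in the combination and 9.22, 9.64 and 9.05 in quinacrine. None of the 24 genes differed detectably, nor did any of the 5820 genes by limma at an adjusted p below 0.05 (0%), with 47 at an unadjusted p below 0.05. The intervals were -0.28 to 0.23 for FASN, -0.65 to 0.41 for HMGCS1, -0.90 to 0.40 for MSMO1, -1.0 to 0.50 for INSIG1 and -0.56 to 0.28 for SCD, which leave room for differences of 1.5-fold in the sterol genes. At single times 12 and 24 h, none of the 24 genes differed by 1.5-fold between these arrays, against 2.04% of all genes higher and 0.206% lower at 12 h, and 0.172% and 0.12% at 24 h. At 6 h PMVK and AACS were at least that much lower in the combination, as were 13.6% of all genes.

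Against the single untreated array no listed gene passed. limma called 0 genes for erlotinib (0%, 144 at an unadjusted p below 0.05), 2 for quinacrine (0.0344%) and 3 for the combination (0.0515%, with 0.0172% upward and 0.0344% downward). Quinacrine was estimated 2.26-fold above untreated for MSMO1 (1.17, SE 0.48, adjusted p = 0.437), 2.00-fold for INSIG1 (1.00, SE 0.49, adjusted p = 0.513) and 1.59-fold for NSDHL (0.67, SE 0.30, adjusted p = 0.482). FASN was estimated 1.69-fold below it with quinacrine (-0.75, SE 0.19, adjusted p = 0.245) and 1.64-fold below it with the combination (-0.71, SE 0.18, adjusted p = 0.259). In erlotinib FASN differed from untreated by -0.09 (SE 0.18, adjusted p = 0.999). These fits had no time term, so change with time counted as spread, and the lone untreated array took its spread from the treated groups. The erlotinib and combination means included 48 h and the quinacrine mean did not. The departure given next uses all of these means and so mixes unlike times. The departure of the combination from the sum of both single effects passed for 0 of 5820 genes by limma (0%, 116 at an unadjusted p below 0.05), with estimates of -0.78 (interval -2.02 to 0.45) for MSMO1 and 0.13 (-0.36 to 0.62) for FASN.

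Slopes per doubling of time passed for none of the 24 genes in the combination, where 289 genes passed (4.97%), 15 of them downward (0.258%). Without the combination 6 h array, which stood apart, 0 of 5820 genes passed in either direction. The median slope of all genes was then -0.015, against 0.078 with that array. The estimates nearest the threshold were those of NCEH1, SREBF1, SQLE (-0.33, adjusted p = 0.0784), MSMO1 (-0.45, adjusted p = 0.0871) and INSIG1 (-0.44, adjusted p = 0.0954). SQLE, MSMO1 and INSIG1 were highest at 12 h of the combination, NCEH1 at 6 h and SREBF1 at 24 h. The combination 12 h array was the highest of the 4 in 6 of the 11 sterol synthesis genes, 1 of the 6 regulators and 3 of the 7 fatty acid genes, as in 35.1% of all genes. Without the combination 12 h array 3 of the 24 genes passed, in a fit that called 889 of all 5820 genes higher and 32 lower. In erlotinib 2 genes passed (0.0344%) and in quinacrine 0 (0%, 618 at an unadjusted p below 0.05), none of them listed here. The difference in slope between combination and erlotinib was -0.58 for INSIG1 (adjusted p = 0.246) and -0.50 for MSMO1 (adjusted p = 0.298), in a comparison that called 6 genes (0.103%), while that between quinacrine and erlotinib called 0 genes (0%, 447 at an unadjusted p below 0.05).

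Genes next to these pathways were examined through 6 further lists. SREBP processing and sterol sensing had 4 tested genes of 9 listed, cholesterol transport and esterification 7 of 10, LXR and its targets 1 of 8, other fatty acid elongation, desaturation and activation genes 10 of 18, fatty acid oxidation 9 of 12 and the isoprenoid branch after FDPS 5 of 10. None of these genes passed the test in the comparisons of quinacrine or the combination with erlotinib or with the untreated array, or in the slope of the combination. In the comparison limited to 6, 12 and 24 h, the gene of each list with the smallest p was ERLIN1 (-0.19, adjusted p = 0.364), NPC1 (0.41, adjusted p = 0.0865), LPCAT3 (0.12, adjusted p = 0.571), HACD3 (-0.30, adjusted p = 0.163), ACADVL (0.36, adjusted p = 0.149) and COQ2 (-0.29, adjusted p = 0.313).

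NPC1, which exports cholesterol from lysosomes, was 8.65 untreated, 8.93, 8.69, 9.05 and 9.60 in erlotinib, 9.16, 9.31 and 9.39 in quinacrine, and 9.14, 9.38, 9.42 and 9.32 in the combination. It was 9.14 at 6 h and 9.32 at 48 h of the combination. From 24 to 48 h of the combination the medians of the 6 lists lay between -0.24 and -0.01, against -0.74 for the 11 sterol synthesis genes, and none of their genes passed 1.5-fold downward.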

How the data were processed

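RNA was read on Affymetrix Human Gene 2.1 ST arrays. The authors ran RMA in Expression Console 1.30, per the labels, which subtracts background, equalises the quantiles of the arrays and gives 1 value per probe set. The deposited arrays still differed in their distributions. The interquartile range over all rows was 2.04 on the combination 6 h array and 2.88 on the quinacrine 24 h array. Their medians over the tested genes were 6.18 and 6.56. Equalising quantiles can hide a shift shared by most genes, and how much was removed was not tested. The deposited values are log2 levels and were used as deposited. Of 53617 rows, 23871 had 1 gene symbol in the platform annotation, 1842 several and 27904 none. Symbols of 22569 rows were matched to RefSeq through Entrez IDs and 90 changed. Testing was limited to genes with a mean of at least 5 over the 12 arrays.

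Linear models were fitted with limma 3.58.1 under R 4.3.3 and p-values adjusted by Benjamini-Hochberg over 5820 genes, with a threshold of 0.05, after the procedure had been tested on simulated data. Treatments were compared over the 11 treated arrays, with factors for treatment and for time. Comparisons with the untreated array used group means over 12 arrays, and slopes used log2 time per treatment. Differences between single arrays have no test and were counted at 1.5-fold. Arrays carry no read depth, and their number limits the precision.

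The listed genes, further lists and tests were chosen with earlier results of these data known. By the naming rule all listed genes are accounted for, with statistics for those past the threshold or, otherwise, for the 3 per branch with the smallest p, and always for INSIG1, HMGCS1, SQLE, SREBF1, SREBF2, FASN, SCD and FADS1, the last of which had no row of its own. Other listed genes were named after their values were seen. Each further list is named by its members past the threshold or its smallest p. Alternatives covered the filter, the prior variance, median centring, cyclic loess, array weights, the time term, the arrays in the fit and leaving out each array. The comparison limited to 6, 12 and 24 h and the fit without the combination 6 h and 48 h arrays were added after the data were seen.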

Additional observations from a re-analysis of the deposited data

Results flagged for a closer look

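In 3 of the 48 groups of 4 arrays checked (the 24 genes in erlotinib and in the combination), 1 array lay far from the other three, where chance gives about 1 in 20. ACAT2 was at 4.81 at 48 h of the combination, a gap to the nearest array of 0.833 of the range. PMVK was at 4.46 at 6 h of the combination (0.913) and AACS at 4.65 on the same array (0.864), the array whose median over the tested genes was the lowest. The part of that array's low median in the PMVK and AACS values was not tested.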

How the results depend on the processing

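Counts are of listed genes called by limma, out of 24 unless the filter changes that. For the combination against erlotinib (1 called) the count was 0 with no filter or with only both groups in the fit, 3 without the combination 6 h and 48 h arrays (HMGCS1, MSMO1 and INSIG1), and 0 to 1 when single arrays were left out. For quinacrine against erlotinib (1 called) it was 0 at a mean of at least 4 or with no filter, 2 with array weights or with the 6, 12 and 24 h arrays only, 5 without the combination 6 h and 48 h arrays, and 0 to 2 without single arrays. Of all 5820 genes the main fit called 30 higher and 36 lower, and array weights 363 and 319. Without the combination 6 h and 48 h arrays 124 of all genes were called higher and 135 lower. For the comparison limited to 6, 12 and 24 h (4 called) it was 2 at a mean of at least 4, 0 with no filter, 8 with a trended robust prior or array weights, 7 with median centring, 9 with cyclic loess, 1 over all times, and 0 to 6 without single arrays. Calls among all 5820 genes rose too, from 68 higher and 105 lower in the main fit. They were 166 and 197 with the trended robust prior and 344 and 266 with array weights. With median centring they were 298 and 288, and with cyclic loess 297 and 321. Array weights gave 2 for quinacrine and 3 for the combination against untreated, and 2 for the slope in quinacrine (each 0 otherwise). Over all 5820 genes, array weights raised these calls as well. Quinacrine against untreated had 226 higher and 268 lower, where the main fit had 0 and 2. The combination against untreated had 504 and 305, where the main fit had 1 and 2. The quinacrine slope had 258 and 21, where the main fit had 0 and 0. The slope in the combination gave 2 with a trended robust prior or cyclic loess, 6 with median centring, and 0 to 3 without single arrays. Of all 5820 genes these called 428 higher and 34 lower (trended robust prior), 245 and 113 (cyclic loess) and 230 and 216 (median centring). The slope in erlotinib gave 1 with a trended robust prior, with 7 of all genes higher and 13 lower. The fatty acid median at 6 h moved from -0.11 to 0.03 (median centring) and 0.06 (cyclic loess) for quinacrine minus erlotinib, and from -0.25 to 0.10 (median centring) for the combination, so its direction at 6 h depends on the centring. The other 25 branch medians recomputed moved by less than the spread over times, and no result changed sign among called values. The causes of these changes were not tested beyond fewer genes or arrays in a fit. The arrays were matched by time, which was a factor in the comparisons of treatments. Without it the counts were 1 for the combination and 1 for quinacrine against erlotinib, and 3 for the comparison limited to 6, 12 and 24 h.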
